A study of Mus musculus with 12 samples.

Results

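A set of 7 secondary granule and neutrophil transcripts, Ngp, Ltf, Camp, Lcn2, S100a8, S100a9 and Chil3, was followed in cultured mouse basophils. They are 7 of the 31301 genes in the deposited count table and were picked by symbol, with the values of the library TSLP mature 1 already known, so this library is shown apart from the other TSLP mature libraries throughout. Wild-type C57BL/6J bone marrow cells were cultured for 7 days with 0.3 ng/mL of IL-3 or with TSLP (1 µg/mL in the culture protocol, while the sample labels give 1 mg/mL), and bone marrow-derived basophils (BMBAs) were sorted into an FcεRIαhi CD49blo immature and an FcεRIαlo CD49bhi mature subpopulation. Each cytokine thus gave an immature and a mature group, and each of the 4 groups held 3 libraries, all of wild-type cells. BMBAs were taken from the CD200R3+ c-Kit- gate, and no neutrophil antigen is named in that gate. In such sorted bulk samples, fewer cells of a kind and less RNA per cell cannot be told apart.

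Neutrophil precursors make their granules in waves. Azurophil granules, which hold myeloperoxidase and serine proteases, are filled in promyelocytes, and secondary (specific) granules, which hold lactoferrin, cathelicidin and lipocalin, in myelocytes, a stage at which C/EBPε is the transcription factor best known to drive these genes. S100a8 and S100a9 are abundant cytosolic proteins of neutrophils and monocytes rather than granule proteins, and Chil3 is a secreted chitinase-like protein of neutrophils and alternatively activated macrophages.

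Some members of the set lie near each other. In the RefSeq annotation of GRCm38.p6, Camp (chromosome 9, 109847377 to 109849456, minus strand), Ngp (chromosome 9, 110419808 to 110423012, plus strand) and Ltf (chromosome 9, 111019292 to 111042766, plus strand) lie within 1.17 Mb, with 0.57 Mb between Camp and Ngp and 0.60 Mb between Ngp and Ltf. S100a8 (chromosome 3, 90669071 to 90670034, plus strand) and S100a9 (chromosome 3, 90692630 to 90695721, minus strand) are 22.6 kb apart. Chil3 (chromosome 3, 106147554 to 106167564, minus strand) and Lcn2 (chromosome 2, 32384637 to 32387739, minus strand) lie apart from these. No exon of another gene overlapped an exon of any member in GENCODE M21. Of the stretches of 50 bases in the longest coding transcript, 29.4% in Chil3 were shared with Chil4 or Gm6522 and none in the other members, so reads of Chil3 could be split with these copies.

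The 250 bases before the start site are printed below for Ngp, Ltf and Camp on chromosome 9, whose levels moved together, and for Lcn2, the member that moved the other way. Each is from RefSeq on GRCm38.p6, written 5′ to 3′ on the strand of the gene, with matches to TTGNGNAA, a core of the sites bound by C/EBP proteins, in capitals on either strand.
Ngp (chr9:110419558-110419807, plus strand): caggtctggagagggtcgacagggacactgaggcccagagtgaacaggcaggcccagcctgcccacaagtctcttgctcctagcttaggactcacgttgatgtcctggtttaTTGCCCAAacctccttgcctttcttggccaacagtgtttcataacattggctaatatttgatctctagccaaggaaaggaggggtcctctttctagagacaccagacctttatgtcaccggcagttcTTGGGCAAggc
Ltf (chr9:111019042-111019291, plus strand): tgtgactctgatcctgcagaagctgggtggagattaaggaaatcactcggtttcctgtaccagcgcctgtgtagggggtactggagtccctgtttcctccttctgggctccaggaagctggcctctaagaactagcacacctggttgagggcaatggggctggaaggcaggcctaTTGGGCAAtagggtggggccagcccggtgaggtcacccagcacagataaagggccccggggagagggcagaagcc
Camp (chr9:109849457-109849706, minus strand): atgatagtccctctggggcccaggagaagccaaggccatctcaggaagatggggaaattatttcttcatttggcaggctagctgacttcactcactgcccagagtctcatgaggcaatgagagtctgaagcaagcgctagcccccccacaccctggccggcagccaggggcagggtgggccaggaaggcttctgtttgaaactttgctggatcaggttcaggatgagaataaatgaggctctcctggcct
Lcn2 (chr2:32387740-32387989, minus strand): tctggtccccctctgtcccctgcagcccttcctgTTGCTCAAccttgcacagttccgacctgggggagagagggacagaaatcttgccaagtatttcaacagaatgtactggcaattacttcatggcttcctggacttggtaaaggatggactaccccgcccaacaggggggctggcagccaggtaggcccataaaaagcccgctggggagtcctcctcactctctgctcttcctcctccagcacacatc
The letters TTGNGNAA, searched on both strands, were present in the window of 4 of 7 members and in 3854 of 32851 windows of the same length in the annotation (11.7%). Ngp held 2 matches, at 138 to 131 and at 11 to 4 bases before the start, Ltf had its match at 75 to 68, Lcn2 at 216 to 209, and S100a9 had TTTCACAA at 130 to 123. Camp, S100a8 and Chil3 had no such letters in this window. The GATA letters AGATAA were in 3 of 7 windows, those of Ltf, S100a9 and Chil3 (9.99% of all windows), and the ETS letters GAGGAA in 3 of 7, those of Ltf, S100a8 and Lcn2 (23.3% of all windows). No match of these motifs overlapped another. These are matches of letters, and whether any factor bound there was not measured.

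Total counts per library ran from 1720065 to 3685285, and values are given as CPM (read counts scaled to the size of the library, with TMM factors). At these depths 3 counts, the limit that a count of 0 allows, stood for 0.809 to 1.46 CPM, and intervals given below cover counting error only. Of all genes, 22634 had counts and 10861 passed a filter on low counts, all 7 members among them, but Camp and Ltf passed it only through the IL-3 mature libraries and TSLP mature 1. All 12 basophil markers were tested, and Mcpt8, a basophil protease, was at 2166 to 16420 CPM. Itga2, which encodes CD49b, was at 22.5 to 31.1 CPM in IL-3 immature and 191.6 to 309.4 CPM in IL-3 mature libraries, as sorted. TSLP mature 1 stood apart from its group. Chi-square per degree of freedom between it and the other TSLP mature libraries was 46.8 and 59.2, against 2.17 to 14.8 for the other pairs within a group, and its share of counts on 3 ribosomal RNA rows was 17.3%, against 31.5% and 34.7% in TSLP mature 2 and 3. Nothing in the labels ties a library to a preparation batch or a date, and the p-values measure the spread between these libraries.

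**Figure D1:**
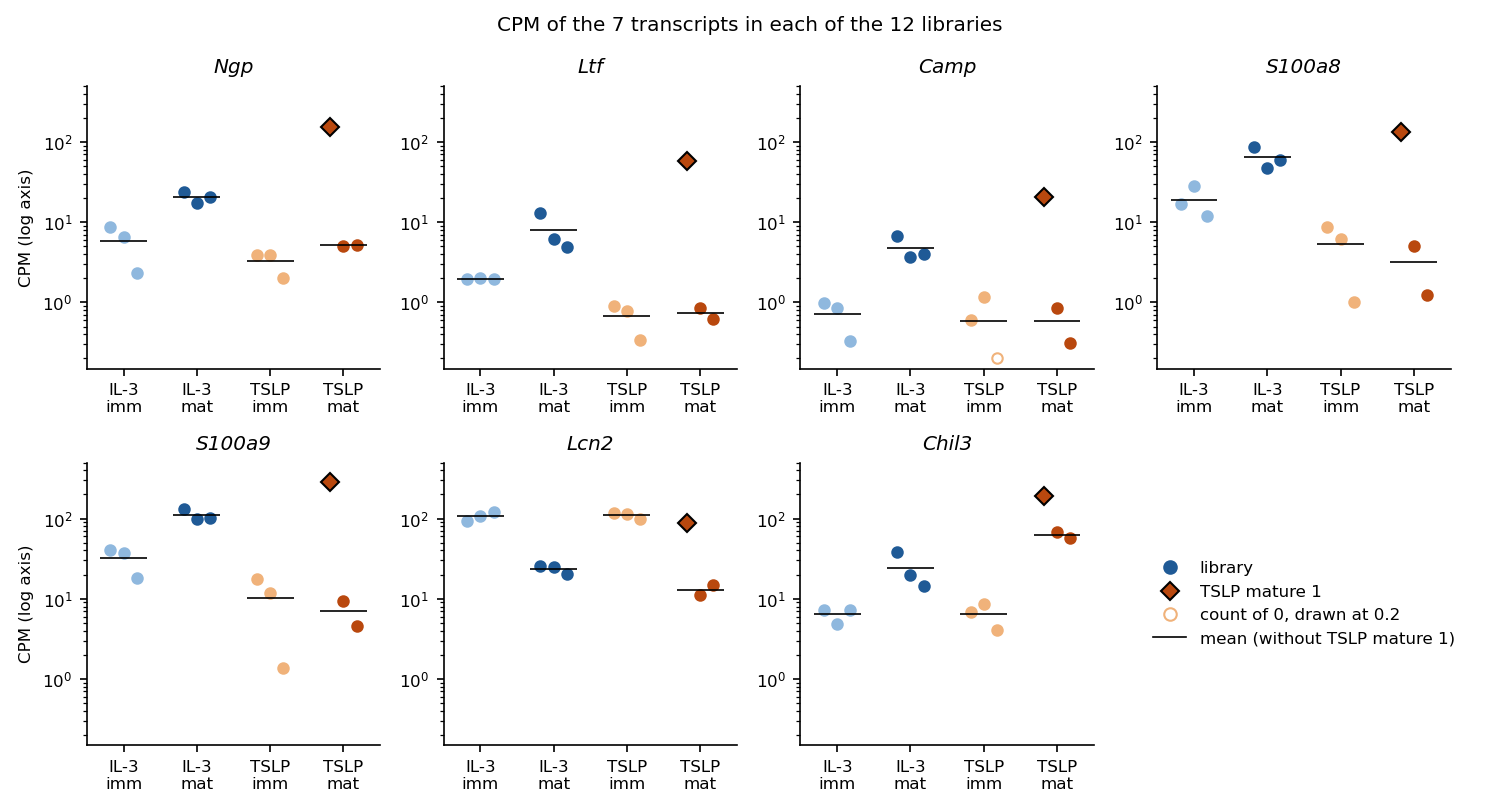
Level of each transcript, as CPM on a log axis, in the 12 libraries, by group (imm, immature, and mat, mature). Circles are libraries, the diamond is TSLP mature 1, the open circle a count of 0, and lines are means without TSLP mature 1. In IL-3 cultures 6 of 7 transcripts lie higher in mature cells and Lcn2 lies lower, and TSLP mature 1 lies above all other libraries for all but Lcn2.

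The stages were first compared within IL-3 cultures, to see how the set differs as basophils mature. Of the 7 transcripts, 6 were at lower level in every immature library than in every mature library, and Lcn2 was the reverse. Among these groups 7 of 7 members did not overlap, where 57.8% of all tested genes did not, and 6 of 7 lay lower in immature cells, where 30% of all tested genes did. With all 12 libraries in the fit, edgeR called 2 of 7 members, Lcn2 higher and Chil3 lower in immature cells, where 46.2% of all tested genes were called (22.1% higher, 24.1% lower). The fit without TSLP mature 1, a library in neither group, called 7 of 7, 1 higher and 6 lower, with 51.5% of all genes called (25.9% higher, 25.6% lower), and with no filter on low counts the fit of all libraries also called 7. The fold changes moved little between the fits and the standard errors were smaller without TSLP mature 1. Camp and Ltf passed the filter only through the IL-3 mature libraries and TSLP mature 1, where they are high. Their part in these counts, and their p-values for this comparison in filtered fits, are thus a description only. In these fits each gene has 1 estimate of the spread for all groups, TSLP mature included. Markers of other cells moved with the stage as well. Of 18 tested monocyte and macrophage markers, 11 were lower in IL-3 immature cells and 0 higher (24.1% and 22.1% of all tested genes), with a median log2 fold change of -1.53. Cx3cr1, Fcgr1 and Ly86 passed the filter only with the IL-3 mature libraries, where they are high, so their part in this count is a description only. The summed level of the list was 172.5 to 482.7 CPM in IL-3 immature against 810 to 1316 CPM in IL-3 mature libraries. The neutrophil surface and lineage markers summed to 465.2 to 510.2 CPM against 1516 to 1721 CPM. Most of the sum in IL-3 mature libraries was Cxcr2, at 75.5 to 90.6 CPM in immature against 912.9 to 1010 CPM in mature libraries. The neutrophil surface antigen Ly6g was at 0 to 0.286 against 5.83 to 8.19 CPM. The part of such cells in the stage difference was not tested.

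Ngp, a granule protein of the cystatin and cathelicidin family, was at 8.73, 6.57 and 2.32 CPM in the IL-3 immature libraries and at 23.9, 17.5 and 20.8 CPM in the IL-3 mature libraries. Every mature library was above every immature library. The log2 fold change (immature minus mature) was -1.86 ± 1.04 (SE) with all 12 libraries (adjusted p = 0.156 by the quasi-likelihood test of edgeR with Benjamini-Hochberg correction) and -1.82 ± 0.332 without TSLP mature 1 (edgeR, adjusted p = 0.000219).

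Ltf, the iron-binding lactoferrin, was at 1.94, 2.0 and 1.99 CPM in immature cells, resting on 4, 7 and 6 counts, and at 13.2, 6.19 and 4.96 CPM in mature cells. IL-3 mature 1 was above the other mature libraries, and the immature libraries were nearly alike. The log2 fold change was -2.03 ± 1.27 with all 12 libraries (edgeR, adjusted p = 0.204) and -1.99 ± 0.45 without TSLP mature 1 (edgeR, adjusted p = 0.00144).

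Camp, the precursor of the antimicrobial peptide cathelicidin, had the fewest counts of the 7, with 2, 3 and 1 counts in the immature and 19, 10 and 9 counts in the mature libraries of IL-3 cultures. Its mature libraries, at 6.77, 3.64 and 4.06 CPM, were all above its immature libraries, at 0.970, 0.857 and 0.331 CPM. The log2 fold change was -2.72 ± 1.26 with all 12 libraries (edgeR, adjusted p = 0.0874). It was -2.68 ± 0.628 without TSLP mature 1 (edgeR, adjusted p = 0.00186).

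Lcn2, a lipocalin that binds bacterial siderophores, was at 92.2, 109.1 and 119.9 CPM in IL-3 immature and at 25.7, 24.8 and 20.3 CPM in IL-3 mature cells. Although its protein is stored in the same granules, its transcript was thus highest where those of Ngp, Ltf and Camp were low. The log2 fold change of 2.18 ± 0.521 passed the test with all 12 libraries (edgeR, adjusted p = 0.00275) and, at 2.23 ± 0.172, without TSLP mature 1 (edgeR, adjusted p = 1.34e-08).

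S100a8 and S100a9 form calprotectin, a heterodimer that sequesters zinc and manganese. S100a8 was at 17.0, 28.3 and 11.9 CPM in IL-3 immature and at 86.9, 47.7 and 60.4 CPM in IL-3 mature libraries. S100a9 was at 40.8, 37.1 and 18.2 CPM in immature and at 132.1, 98.7 and 101.5 CPM in mature libraries. Both were separated fully between the stages. Their log2 fold changes, -1.75 ± 0.93 for S100a8 and -1.80 ± 0.961 for S100a9, did not pass the test with all 12 libraries (edgeR, adjusted p = 0.135 and 0.137). Without TSLP mature 1 they were -1.70 ± 0.368 and -1.76 ± 0.375 (edgeR, adjusted p = 0.00099 and 0.000867).

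Chil3 was at 7.28, 4.86 and 7.28 CPM in IL-3 immature and at 38.8, 19.7 and 14.4 CPM in IL-3 mature libraries, with IL-3 mature 1 again the highest. Its log2 fold change was -1.94 ± 0.506 with all 12 libraries (edgeR, adjusted p = 0.00505) and -1.90 ± 0.347 without TSLP mature 1 (edgeR, adjusted p = 0.000218). IL-3 mature 1 was the highest of its group for 7 of 7 members, where it was so for 38.2% of all tested genes. The monocyte and macrophage markers were also highest there, with a summed level of 1316 CPM against 810 to 942.7 CPM in the other IL-3 mature libraries, and their part in these differences was not tested.

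**Figure D2:**
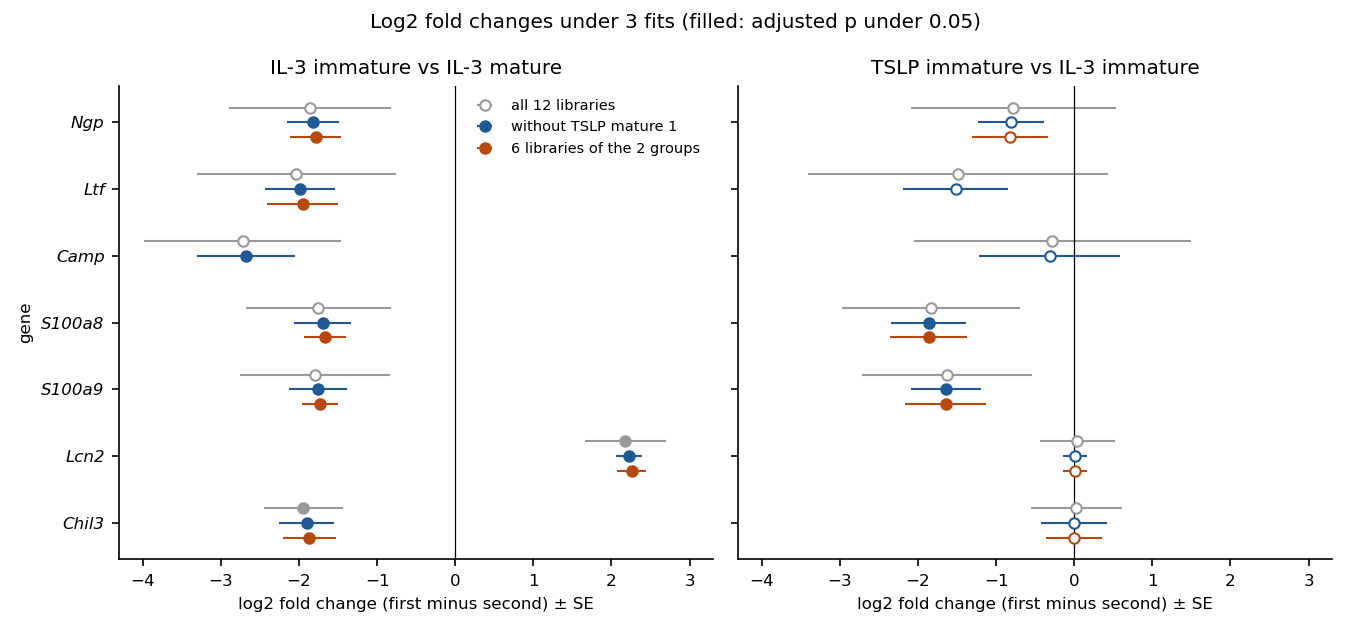
Log2 fold changes of the members (points) with standard errors (bars), for IL-3 immature minus IL-3 mature cells and for TSLP immature minus IL-3 immature cells, under the fit of all 12 libraries, the fit without TSLP mature 1 and the fit of the 6 libraries compared. Filled points have an adjusted p under 0.05. Points of the same gene lie close together, and in the first comparison 2 of 7 are filled in the fit of all libraries and 7 of 7 without TSLP mature 1.

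A fit of the 6 IL-3 libraries alone, chosen after the data were seen, called 6 of the 6 members it could test (53% of all genes called), with Camp left out by the filter. Ltf passed that filter only through the IL-3 mature libraries. By that fit the log2 fold changes ran from -1.95 in Ltf to -1.67 in S100a8 for the members lower in immature cells, and that of Lcn2 was 2.26 ± 0.185 (edgeR, adjusted p = 4.88e-09). Scaling by library totals instead of TMM moved the median over all genes by 0.233 and split the calls over all genes into 3046 higher and 1820 lower, against 2404 and 2616, while the members kept their directions. The median log2 fold change of the members was -1.86, beside -0.065 over all genes tested. DESeq2 gave no adjusted p for 9 of 10861 genes, and 5 of these 9 were members, Camp, Lcn2, Ltf, Ngp and S100a9. Of the other 2 members, DESeq2 called Chil3 (DESeq2 adjusted p = 0.00081) and not S100a8 (DESeq2 adjusted p = 0.293).

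Expressed per length of the longest coding transcript, the order of the levels in IL-3 mature cells was S100a9 (213.5 ± 35.8 CPM per kb, SD, n = 3), S100a8 (134 ± 41.1), Lcn2 (25.8 ± 3.14), Ngp (16.9 ± 2.61), Chil3 (15.8 ± 8.34), Camp (6.36 ± 2.24) and Ltf (2.96 ± 1.62). Ngp and Chil3 differed by less than the SD of Chil3. In IL-3 immature cells Lcn2 came first, at 117 ± 15.3 CPM per kb, ahead of S100a9 at 61.7 ± 23.3 and S100a8 at 39.2 ± 17.2, and the remaining members were at 4.81 ± 2.67 CPM per kb or less.

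TSLP immature and IL-3 immature cells were compared to see whether the cytokine sets the level of these transcripts before maturation. S100a8 and S100a9 lay lower in TSLP immature cells, with nearly equal fold changes in both fits, but of these 2 fits they passed the test only in that without TSLP mature 1, and Lcn2 and Chil3 were at nearly equal level. With all 12 libraries, edgeR called 0 of 7 members (13.3% of all tested genes called), 0 of 7 had an unadjusted p under 0.05, and DESeq2 called 0 of the 2 it gave a p. Without TSLP mature 1, 2 of 7 were called (20.4% of all genes called), both lower in TSLP immature cells (10.7% of all genes). With no filter on low counts, the fit of all 12 libraries called these 2 as well.

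S100a8 was at 8.72, 6.25 and 1.02 CPM in TSLP immature libraries, all below the IL-3 immature libraries, and S100a9 at 17.4, 11.7 and 1.36 CPM, likewise. TSLP immature 3 was far below the others for this pair, with 3 and 4 counts. The log2 fold changes (TSLP minus IL-3) were -1.83 ± 1.14 for S100a8 and -1.63 ± 1.09 for S100a9 with all 12 libraries (edgeR, adjusted p = 0.311 and 0.352). Without TSLP mature 1 they were -1.86 ± 0.482 and -1.64 ± 0.451 (edgeR, adjusted p = 0.0121 and 0.0167). The share of counts on the 3 ribosomal RNA rows moved with this difference, at 35.3%, 35.0% and 40.1% in TSLP immature 1, 2 and 3 and 14.7% to 25.0% in IL-3 immature libraries. With Rn45s left out, the log2 fold changes with all 12 libraries were -1.86 for S100a8 and -1.65 for S100a9.

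Lcn2 was at 118.2, 113.3 and 99.8 CPM in TSLP immature cells, overlapping IL-3 immature cells, with a log2 fold change of 0.04 ± 0.474 (edgeR, adjusted p = 0.969). Chil3 was at 6.92, 8.60 and 4.09 CPM, also overlapping, with a log2 fold change of 0.03 ± 0.578 (edgeR, adjusted p = 0.985). The direction of these near-zero values turned under other scalings. Scaling by library totals moved the median over all genes by -0.282 and split their calls into 409 higher and 1487 lower, against 802 and 641.

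Ngp was at 3.91, 3.91 and 2.04 CPM, overlapping the lowest IL-3 immature library, with a log2 fold change of -0.78 ± 1.31 (edgeR, adjusted p = 0.743). Ltf, with 3, 2 and 1 counts, and Camp, with 2, 3 and 0 counts, were at the limit of detection in TSLP immature cells. The 0 for Camp allows up to 1.02 CPM in TSLP immature 3. Ltf did not overlap between the groups, at 0.902, 0.781 and 0.341 CPM against 1.94 to 2.0, but its log2 fold change of -1.49 ± 1.92 did not pass the test (edgeR, adjusted p = 0.658). In all, 3 of 7 members did not overlap, where 38% of all tested genes did not, and all 3 lay lower in TSLP immature cells, where 17.8% of all tested genes did. TSLP immature 3 was the lowest of its group for 7 of 7 members, where it was so for 31.3% of all tested genes.

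The TSLP mature group was the one that chose the members, so its values are a description with no test. In TSLP mature 2 and 3 the set was low except for Chil3, and in TSLP mature 1 all 7 were above TSLP mature 2 and 3. The summed level of the 7 transcripts was 927.8 CPM in TSLP mature 1, against 99.6 and 84.6 CPM in TSLP mature 2 and 3 and 108.6 to 327.3 CPM in the 9 libraries of the other groups.

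Ngp was at 154.1 CPM (571 counts) in TSLP mature 1 and at 5.11 and 5.23 CPM (18 and 17 counts) in TSLP mature 2 and 3, a ratio of 29.8 to these libraries pooled (exact 95% interval 21.2 to 43.2). Ltf was at 58.0 CPM against 0.851 and 0.615 CPM, a ratio of 78.6 (33.2 to 245), and Camp at 20.8 CPM against 0.851 and 0.308 CPM, a ratio of 35.2 (13.2 to 132). These were the granule transcripts that stood highest in IL-3 mature 1 among the other libraries, and TSLP mature 1 exceeded that library 6.46-fold for Ngp, 4.4-fold for Ltf and 3.07-fold for Camp.

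S100a8 was at 134.6 CPM in TSLP mature 1 against 5.11 and 1.23 CPM, a ratio of 41.5 (27.1 to 66.8), and S100a9 at 282.8 CPM against 9.36 and 4.62 CPM, a ratio of 39.9 (29.9 to 54.5). Against the highest of the other 11 libraries, again IL-3 mature 1, the excess was 1.55-fold and 2.14-fold. For this pair TSLP mature 1 was thus closer to the IL-3 mature libraries than to TSLP mature 2 and 3, which lay below every IL-3 immature library.

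Lcn2 was at 88.0 CPM in TSLP mature 1 against 11.1 and 14.8 CPM, a ratio of 6.85 (5.39 to 8.78), just below the lowest of the 6 immature libraries and 0.734 times the highest of them, IL-3 immature 3. Chil3 was at 189.7 CPM against 67.2 and 57.9 CPM, a ratio of 3.02 (2.68 to 3.42). Chil3 was the only member for which TSLP mature 2 and 3 were also above all 9 libraries of the other groups.

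**Figure D3:**
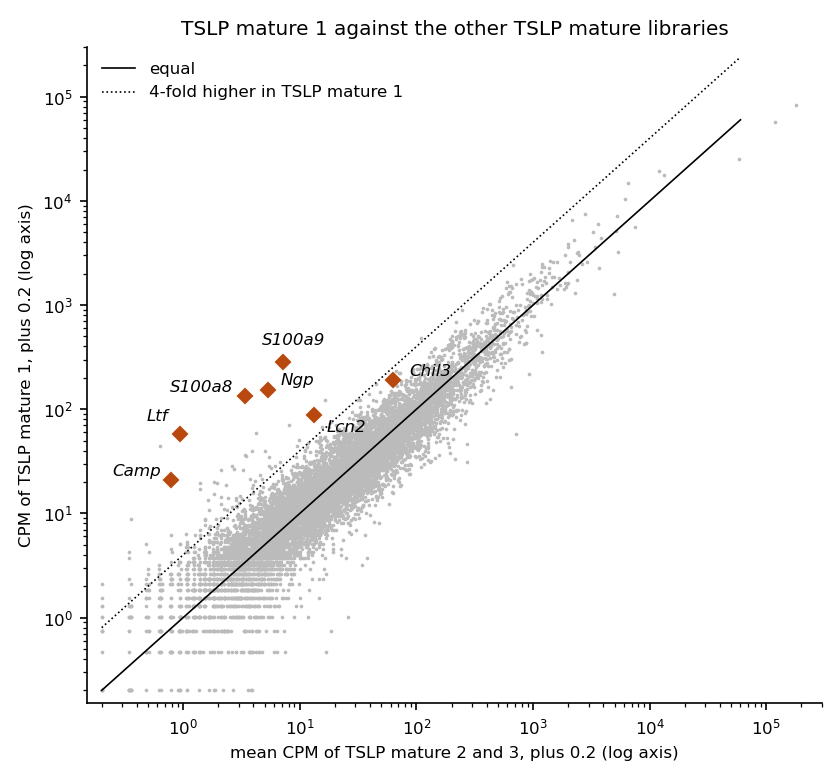
CPM of TSLP mature 1 against the mean CPM of TSLP mature 2 and 3, each plus 0.2 and on log axes, for the 10861 tested genes (grey points) and the 7 members (diamonds). The solid line marks equal values and the dotted line a 4-fold higher value in TSLP mature 1. All members but Chil3 lie above the dotted line.

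Among all 12 libraries, TSLP mature 1 was the highest for 6 of 7 members, where it was so for 13.7% of tested genes. Against TSLP mature 2 and 3 it was at least 2-fold higher for 7 of 7 members (8.9% of tested genes) and at least 4-fold higher for 6 of 7 (0.829%). It was at least 2-fold above the highest of the other 11 libraries for 5 of 7 (0.451% of tested genes) and at least 8-fold for 0 of 7 (0%). It was at least 4-fold above the highest of the other 11 libraries for 2 of 7 members, Ngp and Ltf, where this held for 0.0552% of tested genes. The other 4 such genes were Ly6d, Cd79a, Jchain and C1qc. Since the members were chosen with the values of TSLP mature 1 known, nothing is read from these counts of members. Genes high in TSLP mature 1 alone can miss the filter, and among the 10181 genes with at least 10 counts in it the share was 0.167%, or 17 genes. These included, named after their values were seen, Retnla at 24.0 CPM and Arg1 at 17.8 CPM, genes of alternatively activated macrophages, the eosinophil and macrophage ribonuclease Ear2 at 18.4 CPM, and the B lineage gene Vpreb3 at 14.8 CPM.

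With and without TSLP mature 1, the fitted values of the TSLP mature group were unlike for most members. For TSLP immature minus TSLP mature cells, the log2 fold change went from -4.05 to -0.55 for Ngp, from -4.80 to -0.02 for Ltf, from -3.62 to 0.04 for Camp, from -3.13 to 0.83 for S100a8 and from -3.27 to 0.65 for S100a9. Lcn2 had 1.53 ± 0.493 with and 3.19 ± 0.211 without it, and Chil3 had -4.01 ± 0.48 with and -3.17 ± 0.336 without it. The stage difference of Lcn2 and Chil3 thus had the same direction in TSLP and IL-3 cultures in both fits, while the difference between the cultures was not tested. Calls went from 7 of 7 (25.1% of all genes) to 2 of 7 (31.4%), and nothing is read from these counts, since the members were chosen on this library.

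For TSLP mature minus IL-3 mature cells, the change was from 1.41 to -2.08 for Ngp, from 1.28 to -3.48 for Ltf and from 0.61 to -3.03 for Camp. It was from -0.46 ± 0.862 to -4.39 ± 0.546 for S100a8, from -0.16 ± 0.897 to -4.05 ± 0.52 for S100a9 and from 0.69 to -0.96 for Lcn2. Only Chil3, at 2.10 ± 0.416 and 1.26 ± 0.291, was higher in TSLP mature cells with and without TSLP mature 1. In TSLP mature 2 and 3 the calprotectin genes were thus far below the IL-3 mature libraries, at 1.23 to 9.36 CPM against 47.7 to 132.1 CPM. Calls went from 1 of 7 (24.3% of all genes) to 7 of 7 (26.9%), which is given as a description only.

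**Figure D4:**
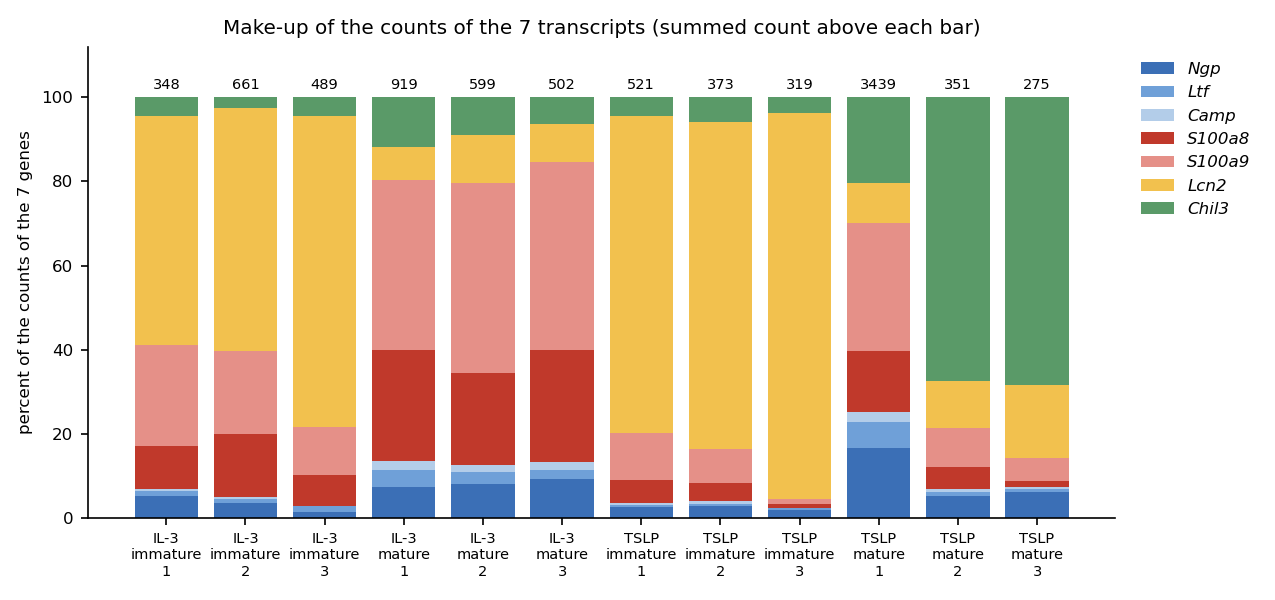
Share of each transcript in the summed counts of the 7 (percent, bars from 0 to 100), by library, with the summed count above each bar. Lcn2 makes up 54.6% to 91.9% in the immature libraries, S100a9 40.4% to 45.2% in the IL-3 mature libraries, Chil3 67.5% and 68.4% in TSLP mature 2 and 3, and no transcript over 30.5% in TSLP mature 1.

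The mixture of the 7 transcripts differed between the groups as well as their sum. Lcn2 made up 54.6% to 74.0% of the counts of the set in IL-3 immature and 75.4% to 91.9% in TSLP immature libraries, and S100a9 and S100a8 led in IL-3 mature libraries. In TSLP mature 2 and 3, Chil3 made up 67.5% and 68.4%. The mixture in TSLP mature 1 was like none of these, with S100a9 at 30.5%, Chil3 at 20.4%, Ngp at 16.6%, S100a8 at 14.5%, Lcn2 at 9.48%, Ltf at 6.25% and Camp at 2.24%.

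Ratios within pairs were steadier for some members than for others. Counts of S100a9 were 1.58 times those of S100a8 in IL-3 immature (exact 95% interval 1.3 to 1.93), 1.7 times in IL-3 mature (1.52 to 1.9), 1.92 times in TSLP immature (1.34 to 2.78), 2.1 times in TSLP mature 1 (1.89 to 2.34) and 2.18 times in TSLP mature 2 and 3 (1.29 to 3.8). Ngp over Ltf was 2.48 in IL-3 mature (1.85 to 3.36) and 2.66 in TSLP mature 1 (2.27 to 3.12), intervals that overlap. S100a9 over Ngp, by contrast, was 5.6 in IL-3 immature (4.11 to 7.79) and 5.39 in IL-3 mature (4.55 to 6.41). It was 3.17 in TSLP immature (2.07 to 5), 1.84 in TSLP mature 1 (1.66 to 2.04) and 1.37 in TSLP mature 2 and 3 (0.869 to 2.18). The intervals of TSLP mature 1 and of TSLP mature 2 and 3 overlap, so the low ratio was not particular to TSLP mature 1. S100a9 over Ltf was 13.3 in IL-3 mature (10.4 to 17.4) and 4.87 in TSLP mature 1 (4.21 to 5.67). In TSLP mature 2 and 3 it was 9.6 (3.84 to 30.9), an interval that overlaps that of TSLP mature 1. These intervals hold counting error and not the spread between libraries, and TSLP mature 1 is a single library on which the members were chosen. Chil3 over Ngp was 1.21 in IL-3 mature (0.978 to 1.5), 1.23 in TSLP mature 1 (1.1 to 1.38) and 12.1 in TSLP mature 2 and 3 (8.59 to 17.7).

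Across the 12 libraries, the log2 CPM of S100a8 and S100a9 were correlated with Pearson r = 0.986, of Ngp and Camp with 0.967, and of Ltf and Camp with 0.958. These values are descriptions over libraries that fall into 4 groups and include TSLP mature 1. Without it, r was 0.983, 0.938 and 0.917. Lcn2 and Chil3 had r = -0.578 over 12 and -0.918 over the other 11 libraries, and Chil3 and S100a8 0.317 and 0.025.

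The genes outside the set with the most similar pattern over 12 libraries were Mmp9 (r = 0.926), Lyz2 (0.919) and Psmd4 (0.919) for Ngp, with 0.956, 0.814 and 0.867 without TSLP mature 1. For Ltf they were Vmn1r58 (0.946), Cript (0.945) and Chmp2a (0.927), and for Camp Chmp2a (0.934), Mmp9 (0.932) and Cript (0.927). For S100a8 they were Mien1 (0.946), Snapc5 (0.931) and Rps9 (0.930), and for S100a9 Mien1 (0.922), Trappc2l (0.920) and Mid1 (0.908). For Lcn2 they were Atp5g3 (0.963), Dtnbp1 (0.958) and Mrpl18 (0.956), and for Chil3 Tmem176a (0.972), Borcs6 (0.943) and Fn1 (0.943). Over the 11 libraries, the leading gene was Tmem59 (0.985) for Ngp, Rsrc2 (0.977) for Ltf, Znhit1 (0.989) for Camp, Serf2 (0.985) for S100a8, Kin (0.970) for S100a9, Igfbp7 (0.980) for Lcn2 and Tmem176a (0.953) for Chil3. Mmp9, the gelatinase of tertiary granules, kept r of 0.956 with Ngp and 0.928 with Camp over those 11.

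Other granule genes were taken from lists made from general knowledge, with earlier results of these data known. Of 16 tested secondary and tertiary granule proteins outside the set, 10 were lower and 1 higher in IL-3 immature than in IL-3 mature cells (24.1% of all tested genes were lower), with a median log2 fold change of -1.38 beside -0.065 over all genes. Mmp9 and Fpr1 passed the filter only through IL-3 mature libraries and TSLP mature 1, so their part in this count is a description only. Slpi, a secretory leukocyte protease inhibitor, was at 326 to 485.4 CPM in IL-3 immature and 2623 to 2937 CPM in IL-3 mature libraries, and Itgam, the CD11b integrin, at 142.7 to 178 and 1297 to 1466 CPM. Anxa1, a formyl peptide receptor ligand, was the gene higher in immature cells, at 839 to 996.7 against 551.6 to 786.5 CPM. In TSLP mature 1 the list summed to 8143 CPM, against 5162 and 6110 CPM in TSLP mature 2 and 3 and 6680 to 7343 CPM in IL-3 mature libraries. Lyz2, the lysozyme of myeloid cells, was at 901.4 CPM in it against 243.1 and 252.6 CPM, Mmp9 at 15.1 against 1.702 and 1.54 CPM, and the collagenase Mmp8 at 49.9 against 15.04 and 14.8 CPM. Of the 16 tested, 2 were at least 4-fold above TSLP mature 2 and 3 (0.829% of all tested genes), Mmp9 and Slc11a1. Among the 8 untested, named after their values were seen, Olfm4 had 28 counts in TSLP mature 1 against 0 and 4 in TSLP mature 2 and 3, Chil1 20 against 3 and 0, Fpr2 19 against 2 and 0, and Cd177 15 against 1 and 2. Of the rest, Mmp25 had 3 counts in TSLP mature 1 against 1 and 3, Fcnb 0 against 1 and 5, and Ptx3 1 against 0 and 0. Bpi was at 0 counts in all 12 libraries, and Fcnb had at most 5 counts in any.

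Of 9 tested genes in the azurophil granule list, 5 were higher and 2 lower in IL-3 immature cells (22.1% and 24.1% of all tested genes). The median log2 fold change was 3.702 beside -0.065 over all genes. The list also holds Gstm1, a cytosolic enzyme, among those lower, and Ms4a3, a membrane protein, among those higher. Ctsg, the protease cathepsin G, was at 1786 to 2181 CPM in IL-3 immature and 125.4 to 184.9 CPM in IL-3 mature libraries, while the proteoglycan Srgn, of the highest mean CPM in the list, was at 1627 to 2145 and 2044 to 2618 CPM (log2 fold change -0.28, edgeR, adjusted p = 0.356). Mpo, myeloperoxidase, was at 650.8 to 759.8 against 0.451 to 2.85 CPM. Lcn2 was thus the member of the set whose stage difference had the sign of Ctsg and Mpo. In TSLP mature 1, 2 of the 9 were at least 4-fold above TSLP mature 2 and 3 (0.829% of all tested genes). They were Mpo at 17.0 against 1.14 and 1.23 CPM and Prtn3 at 26.7 against 1.99 and 3.08 CPM. The list summed to 4156 against 2226 and 2548 CPM. Most of that sum was Srgn, at 3573 against 1811 and 2176 CPM.

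Of 24 listed neutrophil surface and lineage markers, 9 were tested, and 0 of these were at least 4-fold above TSLP mature 2 and 3 (0.829% of all tested genes). Stfa1, Stfa2, Stfa2l1, Stfa3 and BC100530 were at 0 counts in TSLP mature 1, but had at most 3 counts in any library. Among the untested markers, named after their values were seen, Lrg1 had 13 counts in TSLP mature 1 against 3 and 0 in TSLP mature 2 and 3, Itgb2l 12 against 0 and 1, and Trem3 11 against 0 and 0. For the rest, Il1r2 had 11 against 4 and 3, Mrgpra2b 9 against 3 and 4, and Trem1 8 against 5 and 4. Asprv1 had 6 against 3 and 1, Wfdc21 6 against 0 and 0, G0s2 5 against 0 and 0, and Mrgpra2a 5 against 6 and 4. The summed level was 1178 CPM in it, against 983.1 and 991 CPM in TSLP mature 2 and 3 and 1516 to 1721 CPM in IL-3 mature libraries. Ly6g, the neutrophil surface antigen, was at 2.70 CPM in TSLP mature 1, 1.14 and 2.77 CPM in TSLP mature 2 and 3, and 8.19, 5.83 and 8.12 CPM in IL-3 mature libraries. The chemokine receptor gene Cxcr2, of the highest mean CPM in the list, was at 659.9 CPM against 642 and 631.4 CPM. The elastase inhibitor Serpinb1a was at 209.6 against 151.5 and 148.3 CPM and Padi4, which citrullinates histones, at 144.3 against 118.9 and 117.5 CPM. Csf3r, the receptor of G-CSF, was at 15.9 against 4.82 and 4.31 CPM, and the secreted Retnlg at 39.7 against 12.5 and 9.23 CPM, the latter below the 87.8 to 119 CPM of IL-3 mature libraries. In IL-3 cultures 8 of the 9 were lower and 1, Serpinb1a, higher in immature cells (24.1% and 22.1% of all tested genes), with a median of -2.34 beside -0.065 over all genes. Ly6g passed the filter only through the IL-3 mature libraries, where it is high, so its part in this count is a description only. Between immature cells of the cultures, 2 of the 9 neutrophil markers, 5 of the 16 secondary and tertiary and 0 of the 9 azurophil granule genes were higher with TSLP, and 0, 0 and 4 lower (13.3% of all tested genes called).

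Of 11 tested granulocyte transcription factors, 5 were lower and 1 higher in IL-3 immature cells, or 6 of 11 called where 46.2% of all tested genes were. Gfi1, among those lower, passed the filter only through the IL-3 mature libraries, so its part in this count is a description only. Runx1, Cebpa and Lmo4 had the highest mean CPM, and Cebpa was at 235.3 to 398.3 CPM in IL-3 immature and 273.2 to 347.3 CPM in IL-3 mature libraries (log2 fold change 0.07, edgeR, adjusted p = 0.802). Cebpe, which encodes C/EBPε, had 3 counts in TSLP mature 1 and at most 2 in any other library, and was not tested. Of 7 further tested genes listed with the S100 family, 5 were lower in IL-3 immature cells and 0 higher (24.1% and 22.1% of all tested genes). The 7 include S100pbp, which is not an S100 gene and was not called. S100a6 was at 86.7 to 130.3 CPM there and at 2401 to 2927 CPM in IL-3 mature cells, and it was at 406.9 CPM in TSLP mature 1 against 333.4 and 121.2 CPM, well below the IL-3 mature libraries in all 3. S100a10 and S100a11, at 182.4 to 252.8 and 177.8 to 247.4 CPM in IL-3 immature, were at 838.6 to 1024 and 607.2 to 770.1 CPM in IL-3 mature cells.

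Of the chitinase-like family, 2 of 8 were tested, Ctbs, lower in IL-3 immature cells (log2 fold change -1.03, edgeR, adjusted p = 0.00513), and Chid1 (-0.05, edgeR, adjusted p = 0.913). Chil4, the close relative of Chil3, had at most 9 counts in any library. Of receptors proposed for these proteins, 7 of 7 tested were lower in IL-3 immature cells (24.1% of all tested genes). Among them, Emb was at 164.9 to 186 CPM in IL-3 immature and 653 to 741.2 CPM in IL-3 mature cells, Ager, which encodes RAGE, at 5.71 to 11.6 and 13.98 to 17.5 CPM, and Lrp1, an endocytic receptor, at 1.32 to 7.76 and 6.77 to 10.2 CPM. Fpr1 passed the filter only through IL-3 mature libraries and TSLP mature 1, and Tlr4, Cd33 and Lrp1 only through mature libraries of either culture. The part of Fpr1, Tlr4, Cd33 and Lrp1 in the count of receptors called is thus a description only.

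**Figure D5:**
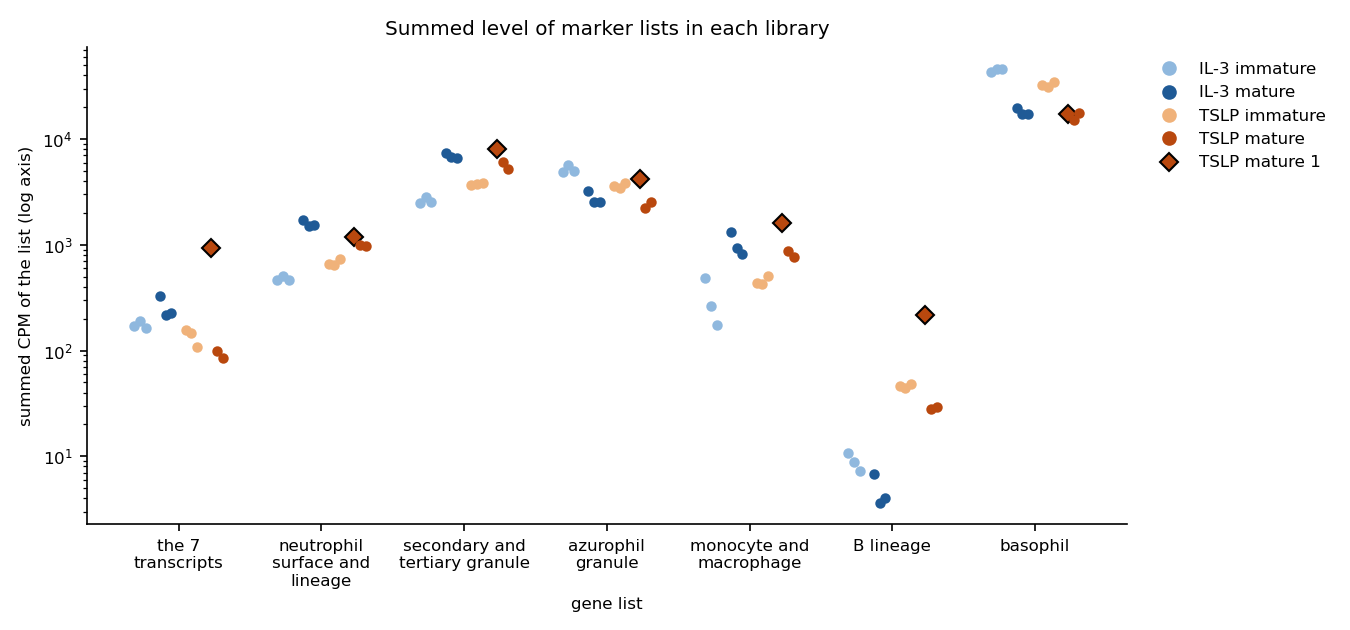
Summed CPM of 7 gene lists on a log axis, with a point for each library coloured by group and a diamond for TSLP mature 1. The diamond stands above the other TSLP mature libraries for the 7 transcripts and for the neutrophil, granule, monocyte and macrophage, and B lineage lists, and lies among the libraries of its group for basophil markers.

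Markers of other cell types moved with the set in TSLP mature 1. Of all tested genes, 0.829% were at least 4-fold above TSLP mature 2 and 3, the share to set beside the counts that follow. All 4 tested B lineage markers were at least 4-fold above TSLP mature 2 and 3, and the list of 16, of which 14 are in the table, summed to 216.4 CPM in TSLP mature 1 against 27.8 and 28.9 CPM, with Cd79b at 70.2, Ms4a1 at 39.1 and Cd79a at 35.6 CPM. Of 18 tested monocyte and macrophage markers, 7 were at least 4-fold above, the list summed to 1619 CPM against 760.9 and 872.1 CPM, and Ctss was at 484 against 123.4 and 95.1 CPM, Ly6c2 at 327.5 against 147.8 and 126.8 CPM, but Ccr2 at 117.1 against 123.7 and 114.5 CPM. Of 12 basophil markers, 0 were, and the list summed to 17440 CPM against 15100 and 17530 CPM. Itga2, which encodes the CD49b used in the sort, was at 96.9 CPM in TSLP mature 1 against 208.5 and 199.1 CPM. The summed level of eosinophil markers was 417.1 CPM in TSLP mature 1 against 360.6 and 380 CPM in TSLP mature 2 and 3. Most of that sum was Alox15, at 309.2 against 297.3 and 304 CPM. Of the 5 tested eosinophil markers, 1 was at least 4-fold above, Prg2, at 19.4 against 0.851 and 1.54 CPM. Dendritic cell markers summed to 38.9 against 15.04 and 16.6 CPM, and T and NK markers to 15.9 against 4.62 and 5.67 CPM. Erythroid markers summed to 2.97 against 0.923 and 1.702 CPM. The mast cell list summed to 1038 against 1067 and 1074 CPM, but 9 of its 10 genes were at 0 counts in TSLP mature 1. The part of any other cell type in the values of the 7 transcripts was not tested.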

How the data were processed

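RNA of sorted BMBAs was captured on oligo-dT beads, amplified by TAS-Seq and sequenced on an Ion Proton. The authors trimmed reads with cutadapt and mapped them with Bowtie2, in a single orientation, to mouse reference RNA. They deposited raw read counts per gene symbol, which are used here unchanged. The submitters' processing notes name GRCm39 and mm10 and the paper names GRCm38, so coordinates here are from the reference tables and not from the count table. An unnamed last row held the sum of each column and was left out.

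Groups were taken from the labels. Counts were filtered with filterByExpr (minimum count 10, minimum total 15), scaled by TMM and fitted with edgeR 4.0.16 in R 4.3.3 as 4 group means over 12 libraries. The quasi-likelihood test was corrected by Benjamini-Hochberg over all 10861 genes, with 0.05 as the threshold for a call. DESeq2 1.42.0 was an alternative. Scripts were tested on simulated data. The members and lists were chosen with earlier results of these data known. Of each list, the 3 members of highest mean CPM were to be named, for the neutrophil lists also the 3 highest in TSLP mature 1, and for each member the 3 genes of most similar pattern (log2 CPM, prior count 2). Eosinophil, T and NK, erythroid, dendritic and mast cell lists are given by their sums. Other genes were named after their values were seen.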

Additional observations from a re-analysis of the deposited data

How the results depend on the processing

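The IL-3 stage calls of Lcn2 and Chil3 were kept in all 12 fits that left out 1 library, and the number of members called in that comparison ran from 2 to 7 over these fits. It was 1 by DESeq2 (4788 of 10852 genes called), 7 with no filter (5115 of 22634), 4 with the replicate block (5251 of 10861), which added Camp and S100a9, and 6 with the 6 libraries of the 2 groups (5318 of 10026), a fit chosen after the data were seen. For TSLP immature against IL-3 immature it was 0 to 2 over the fits without 1 library, 2 with no filter and 2 with 6 libraries (1889 of 10041 genes called). For TSLP immature against TSLP mature it was 2 to 6, 1 by DESeq2 and 4 with a filter of 10 CPM in 3 libraries, and for TSLP mature against IL-3 mature 1 to 7, and 4 with no filter. Nothing is read from the member counts of comparisons with TSLP mature cells, since the members were chosen with TSLP mature 1 known. Over the fits without 1 library, genes called ran from 4193 to 5676 for IL-3 immature against IL-3 mature and from 588 to 2243 for TSLP immature against IL-3 immature. They ran from 1774 to 3456 for TSLP immature against TSLP mature and from 1658 to 2968 for TSLP mature against IL-3 mature. TSLP mature 1 exceeded the other 11 libraries at least 2-fold for 5 members (0.451% of tested genes) and 8-fold for 0 (0%), given as a description only. The highest counts between immature cells and between mature cells were those without TSLP mature 1, and the lowest between immature cells (588) was that without TSLP immature 3. The lowest for members in TSLP cultures were those without TSLP immature 1, TSLP immature 2 or TSLP mature 1. The causes were not tested.

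Directions turned as follows. For TSLP immature minus IL-3 immature, the log2 fold change of Chil3 was -0.023 with the size factors of DESeq2, -0.243 with library totals, -0.011 with the 10 CPM filter, -0.068 with the replicate block, -0.001 without Rn45s, -0.006 with 6 libraries, and -0.235 to 0.26 without 1 library. That of Lcn2 was -0.009 with size factors, -0.232 with totals, -0.009 with the block and -0.062 to 0.098 without 1 library, and that of Camp -1.086 to 0.261. For TSLP immature minus TSLP mature, the range without 1 library was -4.345 to 0.043 for Camp, -3.712 to 0.832 for S100a8 and -3.931 to 0.648 for S100a9. For TSLP mature minus IL-3 mature it was -3.031 to 1.135 for Camp (-0.013 with the block), -0.959 to 1.101 for Lcn2, -3.482 to 1.83 for Ltf, -2.075 to 1.933 for Ngp, -4.394 to 0.09 for S100a8 and -4.047 to 0.385 for S100a9.

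Of the 18 pairs of libraries with the same number, 7 had a correlation of deviations over 0.1 (-0.077 to 0.388), and 8 of 12 libraries correlated best with their own number, so the numbers were not taken to pair the samples. Camp and Ltf rested on 0 to 7 counts in the immature libraries, where depth limits what can be seen.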
